A study of Mus musculus with 27 samples.

Results

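NIH/3T3 cells, an established line of mouse embryonic fibroblasts, were compared with themselves 24 h apart: 3 arrays of cultures harvested 30 h after a forskolin pulse against 3 arrays of cultures harvested 6 h after it. These 6 arrays were chosen by their labelled time among the 27 Affymetrix mouse U74v2 arrays of the series, which cover 9 time points from 0 h to 48 h with 3 arrays each, and they were paired by the experiment number in the labels, 1 to 3. The labels call the experiments biological replicates, and each array was prepared from total RNA of 1 flask. Every culture had been grown in 20% serum, stepped down to 10% and then 5% serum, given 15 µM forskolin for 2 h in medium without serum, rinsed, and kept without serum from then on. At 30 h the cells had therefore been without serum for 24 h longer than at 6 h, and both groups had received the drug, which raises cyclic AMP by turning on adenylyl cyclase. Cultures that had not been pulsed were not analysed here.

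The circadian clock of fibroblasts is a feedback loop in which CLOCK and ARNTL (BMAL1) drive the genes of their own repressors, the PER and CRY proteins, and of the nuclear receptors NR1D1 and NR1D2, which repress Arntl. A pulse of forskolin or serum sets the clocks of many cells to a common phase, and harvests a whole day apart then fall at nominally the same phase. To the extent that a common phase and a period of 24 h hold, what differs between them is anything that does not return after a day. An example is the withdrawal of fibroblasts from the cell cycle when serum is taken away. The genes of mitosis and of DNA replication are known to be switched off in that state.

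The values are log2(intensity + 12.1) after quantile normalization over all 27 arrays, so that a difference of 1 is a 2-fold difference on this scale, which understates changes of dim probe sets. The number of arrays limits the precision, and detection calls were not used here. The array medians were 173.05 to 177.9 intensity units at 6 h and 169.05 to 200.65 at 30 h. The highest, 200.65, belonged to the experiment 1 array at 30 h and was also the highest of the series. The 3′ to 5′ signal ratio of the actin control, a measure of RNA integrity, was 1.3 to 1.73 at 6 h and 1.23 to 1.5 at 30 h. The experiment 1 array at 30 h also stood apart in the clock genes, as described below. Counts over all genes and of the G2 and mitosis, S phase, ribosome biogenesis and clock output lists are given without it. Most other list counts are not. The 12 fibroblast markers on the array were all measured, with a median at the 98.6th percentile of the mean level, and 0 of them were called. Their summed intensity was 101800 to 106700 at 6 h and 109200 to 115500 at 30 h.

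Of 5643 genes tested, each by its brightest probe set, 443 (7.85%) differed between 30 h and 6 h at an adjusted p below 0.05 in the paired limma fit. Of these, 178 (3.15%) were higher and 265 (4.7%) lower at 30 h, and 441 moved in the same direction in all 3 experiments. Counted as probe sets, 532 of 7453 (7.14%) were called, 218 (2.92%) higher and 314 (4.21%) lower. With each array centred on its median in place of quantile normalization, the split was 151 higher and 352 lower. Without the experiment 1 array at 30 h, 432 genes (7.66%) were called, 3.08% of all genes higher and 4.57% lower, and 351 of them were among the 443. Without the experiment number as a block, 55 probe sets (19 higher, 36 lower) and 0.797% of genes (0.23% higher, 0.567% lower) were called, although 802 probe sets had an unadjusted p below 0.05. Leaving out 1 array left 194 (experiment 3 at 30 h) to 517 probe sets. Leaving out experiment 1 left 516 probe sets and 7.6% of genes (3.46% higher, 4.15% lower), leaving out experiment 2 left 114 and 1.74% (0.478% higher, 1.26% lower), and leaving out experiment 3 left 58 and 0.939% (0.319% higher, 0.62% lower). The changes of the 3 experiments correlated across the 7453 probe sets at 0.247 (experiments 1 and 2), 0.391 (1 and 3) and 0.422 (2 and 3), where genes are not independent replicates.

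**Figure D1:**
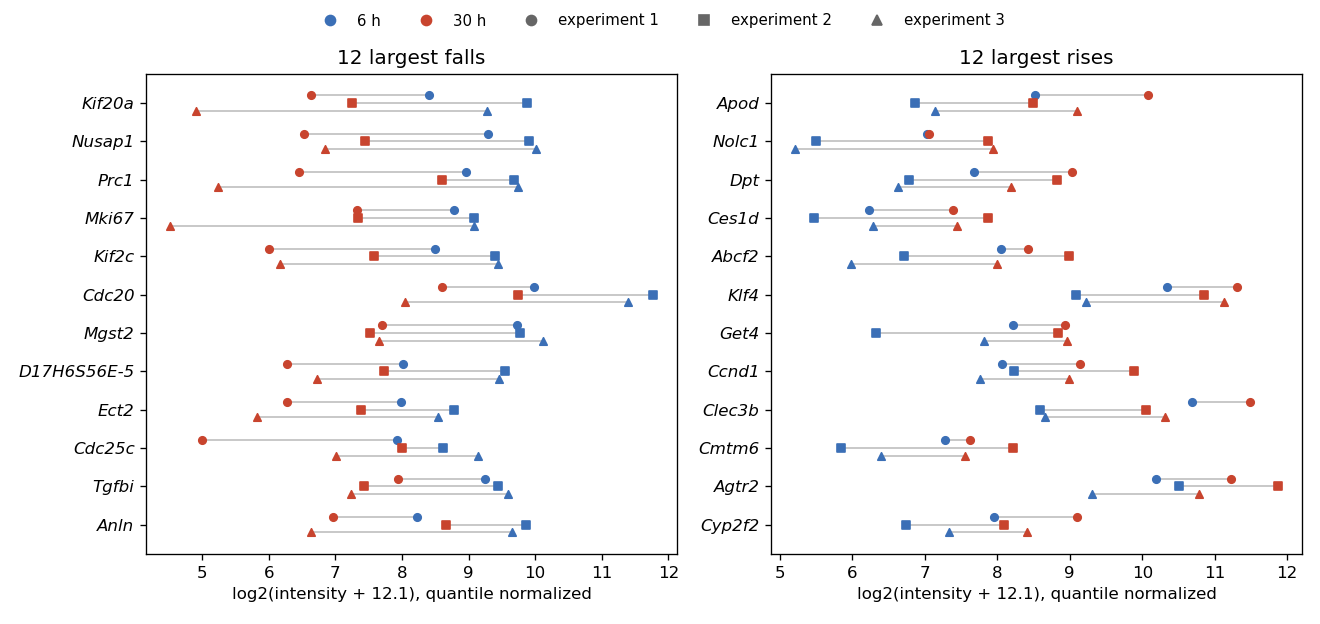
Levels of the 12 genes with the largest falls (left) and the 12 with the largest rises (right), 1 row of 3 lines per gene. The x axis is log2(intensity + 12.1) after quantile normalization; blue marks are 6 h, red marks 30 h, a line joins the arrays of 1 experiment, and circles, squares and triangles are experiments 1, 2 and 3. The genes were chosen for 1 direction in all 3 experiments, so all lines of a gene run the same way, while their lengths differ, as for Prc1, where experiment 2 moved by -1.09 and experiment 3 by -4.51.

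Of the 12 largest falls, 8 were in genes of the G2 and mitosis list, and not every gene described in this paragraph was on that list. Kif20a, a kinesin of the central spindle, had levels of 8.41, 9.87 and 9.28 at 6 h and 6.64, 7.25 and 4.92 at 30 h in experiments 1 to 3. All 3 arrays at 30 h lay below all 3 at 6 h, by a change of -2.92 ± 0.54 (SE, n = 3 per time, adjusted p = 0.00158). Prc1, which bundles microtubules of the central spindle, was at 8.96, 9.69 and 9.75 and then at 6.46, 8.60 and 5.24, again without overlap, a change of -2.70 ± 0.56 (adjusted p = 0.00448). Kif2c, a kinesin that takes microtubules apart at centromeres, was at 8.50, 9.40 and 9.44 at 6 h and at 6.01, 7.58 and 6.17 at 30 h, and the change was -2.53 ± 0.42 (adjusted p = 0.000651). Cdc20, the activator of the anaphase-promoting complex, was at 9.98, 11.77 and 11.39 and then at 8.59, 9.75 and 8.04. This was a change of -2.25 ± 0.32 (adjusted p = 0.000147), with every 30 h array below every 6 h array. Mki67, which codes for the proliferation antigen Ki-67, fell by 2.58 ± 0.61 (adjusted p = 0.0115), from 8.78, 9.08 and 9.08 to 7.33, 7.34 and 4.52. A second, dimmer Mki67 probe set stood at 0.14 ± 0.25 (adjusted p = 0.829). Nusap1, a spindle protein, fell by 2.79, Ect2, the exchange factor that starts cytokinesis, by 1.95, Cdc25c, the phosphatase that activates the mitotic kinase, by 1.90, and Anln, the scaffold of the cleavage furrow, by 1.82.

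Single arrays carried some of these calls. Prc1 missed the threshold without the experiment 3 array at 30 h (change -2.0, adjusted p = 0.0598), and so did Mki67 without the experiment 3 array of either time (adjusted p = 0.0983 each). Cdc25c missed it without the experiment 1 array at 30 h (-1.64, adjusted p = 0.0818) and without 3 of the other arrays (adjusted p up to 0.108). Anln missed it without each of 5 arrays, with an adjusted p of 0.0508 without experiment 1 at 30 h and up to 0.26. The calls of Kif20a, Nusap1, Kif2c, Cdc20 and Ect2 held without any 1 of the 6 arrays, but without the block none of the 5 was called (adjusted p = 0.141, 0.161, 0.0683, 0.161 and 0.0801). Kif20a was also lost without experiment 3 (adjusted p = 0.0522) and Nusap1 without experiment 1 (adjusted p = 0.0507). The 30 h means of Kif20a, Prc1, Mki67, Kif2c, Ect2 and Cdc25c lay below 6.77, the lowest mean level that passed the filter on dim probe sets, so the size of these falls rests on dim signals at 30 h.

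The list of G2 and mitosis genes held 43 genes on the array, of which 33 passed the filter. Of these 33, 27 fell (background 4.7%) and 0 rose, and the change was negative in all 33, with a median of -1.34 against 0.00948 over all genes tested. For 24 of the 33 all 30 h arrays lay below all 6 h arrays, against 8.81% of all genes tested. The mitotic cyclin Ccnb2 fell by 1.53 (adjusted p = 0.00047), the spindle checkpoint gene Mad2l1 by 1.5 and the CDK partner Cks2 by 1.49. Ccna2, the cyclin of S phase and G2, fell by 1.24, Cdk1, the mitotic kinase, by 1.17, Plk1, a kinase of mitotic entry, by 0.97 and Top2a, the topoisomerase that untangles sister chromatids, by 0.53. The transcription factor Foxm1, which drives many of these genes, fell by 0.80 (adjusted p = 0.041). The 6 members that did not pass were Aurkb (-1.34, adjusted p = 0.14), Hmgb2 (-1.04), Cenpa (-0.42), Ckap5 (-0.29), Bub3 (-0.08) and Cks1b (-0.04). The median change was -0.885 in experiment 1, -1.09 in experiment 2 and -1.83 in experiment 3. Without the experiment 1 array at 30 h 21 members fell, with a median of -1.48. Without experiment 3 8 members were called, and without the block 2. In bulk RNA, fewer dividing cells and less of these transcripts per dividing cell cannot be told apart.

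The promoters of 4 called genes of the list are shown. They had the largest falls among the members whose promoter window held both of 2 short elements. Windows on 1 chromosome were left out, and genes that fell more can be missing. It follows from this choice that all 4 hold both elements. One is the CHR (cell cycle genes homology region), searched as TTTGAA, and the other the CCAAT box, the site of the factor NF-Y, searched as CCAAT, both on either strand; a match of one can share 1 base with a match of the other. The sequences are RefSeq's (GRCm38.p6), 5′ to 3′ on the gene's strand, from 250 bases before the start site to 10 after it, with every match in capitals.
Prc1 (chr7:80294201-80294460, plus strand): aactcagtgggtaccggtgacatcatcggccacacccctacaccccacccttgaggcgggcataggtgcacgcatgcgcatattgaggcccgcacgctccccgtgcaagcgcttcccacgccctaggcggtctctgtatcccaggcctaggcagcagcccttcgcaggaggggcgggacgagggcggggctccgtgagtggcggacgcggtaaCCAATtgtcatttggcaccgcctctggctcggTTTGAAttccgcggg
Mki67 (chr7:135716370-135716629, minus strand): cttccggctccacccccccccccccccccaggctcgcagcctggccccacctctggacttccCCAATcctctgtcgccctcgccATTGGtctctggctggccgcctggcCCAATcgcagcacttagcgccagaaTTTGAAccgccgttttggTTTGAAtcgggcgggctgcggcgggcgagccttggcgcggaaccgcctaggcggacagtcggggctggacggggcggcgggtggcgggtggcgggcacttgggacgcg
Cdc20 (chr4:118437334-118437593, minus strand): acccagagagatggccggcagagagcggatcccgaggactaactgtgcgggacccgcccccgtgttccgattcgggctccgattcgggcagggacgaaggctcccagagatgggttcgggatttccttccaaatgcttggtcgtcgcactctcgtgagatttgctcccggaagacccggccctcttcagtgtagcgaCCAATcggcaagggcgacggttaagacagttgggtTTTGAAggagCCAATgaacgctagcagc
Ect2 (chr3:27153845-27154104, minus strand): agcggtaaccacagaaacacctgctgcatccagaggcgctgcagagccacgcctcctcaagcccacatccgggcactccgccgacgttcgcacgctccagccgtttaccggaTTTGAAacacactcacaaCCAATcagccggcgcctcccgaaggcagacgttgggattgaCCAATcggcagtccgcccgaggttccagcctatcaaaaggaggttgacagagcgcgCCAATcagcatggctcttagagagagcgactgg

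In Prc1 the CHR begins 5 bases before the start site and the CCAAT box 37 bases before it. In Cdc20 the CHR begins 18 bases before the start, between CCAAT boxes that begin 53 and 8 bases before it. Over the whole window of 300 bases (250 before to 50 after the start), 25 of the 33 measured G2 and mitosis genes had an entry, with 28 windows, and 22 of the 28 (78.6%) held both motifs. The CHR was in 24 of them (85.7%) and the CCAAT box also in 24 (85.7%). Of the 22 windows of members that fell, 18 (81.8%) held the CHR and 16 (72.7%) both. The measured members include those that fell, and the change was negative in all 33. These shares therefore cannot show whether the motifs mark the members that fell within the list. Among the 5921 windows of 4571 tested genes 11.8% held the CHR, 37.4% the CCAAT box and 5.0% both, and among all 32851 windows 17.9%, 37.4% and 7.0%. In the S phase list, of 42 windows of 34 genes, 24 (57.1%) held the CCAAT box, 6 (14.3%) the CHR and 4 (9.5%) both. These are matches of letters, given as a description with no test.

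Genes of S phase and DNA replication fell by less. Of 37 measured members of 45 on the array, 11 (29.7%) fell, against 4.7% of all genes, and 0 rose. Of the 37 changes 29 were negative, with a median of -0.52. Mcm5, a subunit of the replicative helicase, was at 8.97, 10.16 and 9.84 at 6 h and at 7.85, 9.62 and 7.74 at 30 h. It fell in each experiment, by 1.12, 0.54 and 2.10, but the groups overlapped, because experiment 1 began lower, and the change was -1.25 ± 0.29 (adjusted p = 0.0088). Pola1, the catalytic subunit of DNA polymerase alpha, fell by 0.89 ± 0.20 (adjusted p = 0.00648), from 8.0, 8.25 and 8.61 to 7.38, 7.53 and 7.26 with no overlap. Rrm1 and Rrm2, the subunits of ribonucleotide reductase, fell by 0.78 and 0.74, and the licensing factor Cdt1 fell by 0.82. Rfc4 of the clamp loader fell by 0.84 (adjusted p = 0.0496). Cdc45, a helicase cofactor, was at 7.92, 8.75 and 8.75 and then at 5.57, 8.74 and 7.73. Its change of -1.12 (adjusted p = 0.031) was -0.55 (adjusted p = 0.215) without the experiment 1 array at 30 h. Pcna, the sliding clamp (-0.08), and Mcm2 (0.04) did not pass. The calls of Mcm5 and Pola1 were lost without the experiment 3 array at 6 h or at 30 h (adjusted p = 0.0766 and 0.0772, and 0.0564 and 0.0582), Cdc45's also without experiment 1 or 3 at 6 h (adjusted p = 0.116 and 0.15), and Rfc4's without any 1 of the 6 arrays (adjusted p up to 0.196). Without the experiment 1 array at 30 h 8 members fell, and without the block 0.

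**Figure D2:**
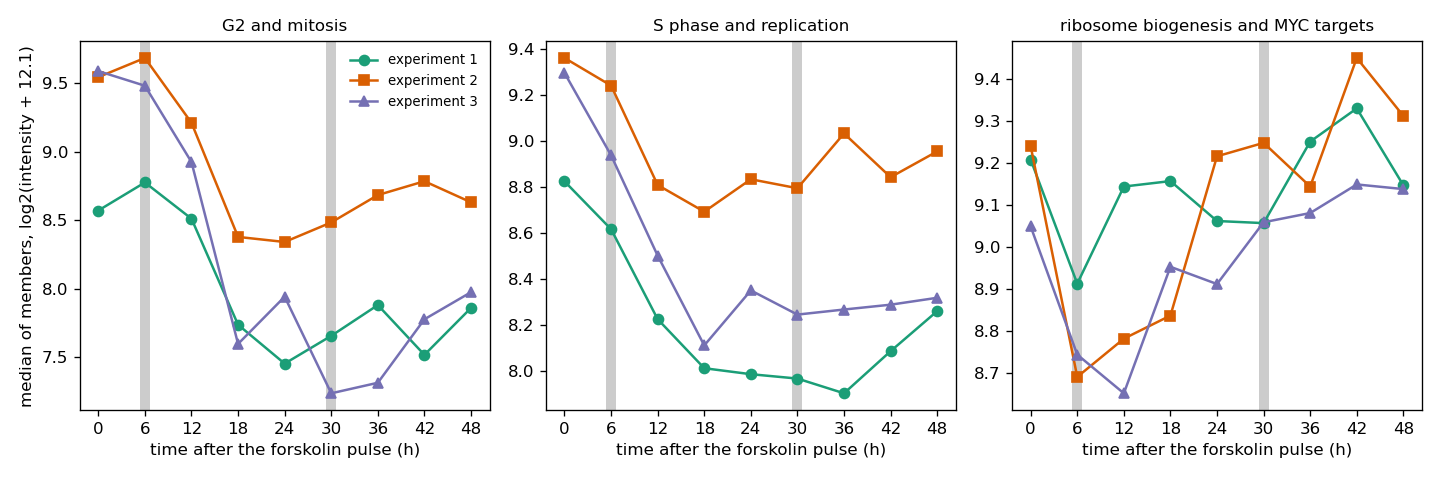
Median level of 3 gene lists on every array against the time after the forskolin pulse (x axis, h); the y axis is the median of the measured members in log2(intensity + 12.1), 1 line per experiment, and the grey bars mark 6 h and 30 h. The G2 and mitosis list is high at 0 h, 6 h and 12 h and low from 18 h on in every experiment, the S phase list is already lower at 6 h than at 0 h, and ribosome biogenesis is lowest at 6 h or 12 h.

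Over the time course the mitotic genes were at their low level by 18 h. The median level of the 33 G2 and mitosis genes was 9.26 at 0 h, 9.24 at 6 h and 8.90 at 12 h, and then 7.70 at 18 h, 7.95 at 24 h and 7.90 at 30 h. In experiment 1 the median was 8.776 at 6 h and 7.655 at 30 h, in experiment 2 it was 9.686 and 8.484, and in experiment 3 it was 9.483 and 7.235. Experiment 1 thus began lower than the others, and all 3 experiments were lower at 30 h than at 6 h.

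Cyclins and inhibitors of G1 moved both ways. Ccnd1, cyclin D1, which couples growth signals to the cell cycle, rose by 1.32 ± 0.21 (adjusted p = 0.000556), from 8.07, 8.24 and 7.76 at 6 h to 9.14, 9.88 and 8.99 at 30 h, without overlap. Ccnd3, cyclin D3, rose by 0.64 ± 0.10 (adjusted p = 0.000443), from 10.60, 10.73 and 10.61 to 11.27, 11.38 and 11.21. Both cyclins were higher at 30 h in each experiment. Cdkn2c, the CDK inhibitor p18, fell by 0.69 ± 0.10 (adjusted p = 0.000246) and Rbl1, the pocket protein p107, by 0.79 ± 0.20 (adjusted p = 0.0177). Rbl1 missed the threshold without 4 of the 6 arrays (adjusted p up to 0.104, without experiment 1 at 6 h). These 4 are 33.3% of the 12 measured genes of the list, against 7.85% of all genes.

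The 12 largest rises were in genes of several kinds. Apod, the lipid carrier apolipoprotein D, was at 8.52, 6.86 and 7.15 at 6 h and at 10.08, 8.50 and 9.10 at 30 h. It was higher by 1.56, 1.64 and 1.95 in the 3 experiments, a change of 1.72 ± 0.28 (adjusted p = 0.000551), although the groups overlapped because experiment 1 was high at both times. Dpt, dermatopontin, a matrix protein, rose by 1.65 ± 0.30 (adjusted p = 0.00133), from 7.67, 6.79 and 6.63 to 9.03, 8.83 and 8.19. Agtr2, the type 2 angiotensin receptor, rose by 1.30 ± 0.19 (adjusted p = 0.000246), from 10.19, 10.50 and 9.30 to 11.23, 11.87 and 10.78. All 30 h arrays lay above all 6 h arrays for both genes. Clec3b, tetranectin, a plasminogen-binding protein, rose by 1.31, Cyp2f2, a cytochrome P450, by 1.19 and Klf4, a Krüppel-like transcription factor linked to growth arrest, by 1.54 (10.35, 9.09 and 9.22, then 11.30, 10.85 and 11.12, adjusted p = 0.000248). A dimmer Klf4 probe set below the filter stood at -0.11 ± 0.21. Nolc1 (1.71), a nucleolar protein, Ces1d (1.57), a carboxylesterase, Abcf2 (1.55), an ATP-binding cassette protein, Get4 (1.45), which helps insert tail-anchored proteins, and Cmtm6 (1.30), a membrane protein, completed the 12 largest rises. These 5 calls were each lost without several single arrays, with an adjusted p of up to 0.211 for Nolc1 (without experiment 3 at 6 h), 0.105 for Ces1d and 0.117 for Abcf2 (without experiment 2 at 30 h), and 0.109 for Get4 and 0.186 for Cmtm6 (without experiment 2 at 6 h, where Cmtm6 was at 0.84). The 6 h means of Nolc1, Ces1d and Cmtm6 lay below 6.77, and a second Abcf2 probe set below the filter stood at -0.12 ± 0.46. Nolc1 changed by 0.03 in experiment 1 and by 2.37 and 2.73 in experiments 2 and 3, and Abcf2 by 0.37, 2.28 and 2.01. The mean of Nolc1 was 6.88 at 0 h, 5.91 at 6 h and 7.62 at 30 h. That of Abcf2 was 9.33, 6.91 and 8.47, so at 30 h it was still below its 0 h level.

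Ribosome biogenesis and MYC target genes were the list with the most rises. Of 35 measured members, 9 (25.7%) rose (background 3.15%) and 0 fell, the median change was 0.25, and for 15 all 30 h arrays lay above all 6 h arrays, against 7.57% of all genes. Nop56, a core protein of the C/D particles that guide rRNA methylation, rose by 0.87 ± 0.19 (adjusted p = 0.00754), from 8.42, 8.68 and 8.11 to 9.18, 9.57 and 9.06. Srm, spermidine synthase, rose by 0.86 ± 0.17 (adjusted p = 0.00293) and Ddx21, a nucleolar RNA helicase, by 0.85 ± 0.19 (adjusted p = 0.00657). The rise of Srm was 0.13 in experiment 1 against 1.20 and 1.23 in the others. Nop56 missed the threshold without the experiment 2 array at 30 h (adjusted p = 0.0528) and Ddx21 without the experiment 3 array at 30 h (adjusted p = 0.0554). Ncl, nucleolin (-0.26), and Npm1, nucleophosmin (0.02), did not pass. The count was 8 without the experiment 1 array at 30 h, 7 without experiment 1, and 0 without experiment 2, without experiment 3 or without the block. Of 22 ribosomal protein genes 0 passed, and the one of smallest p, Rpl13a, stood at -0.51 (adjusted p = 0.0912).

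**Figure D3:**
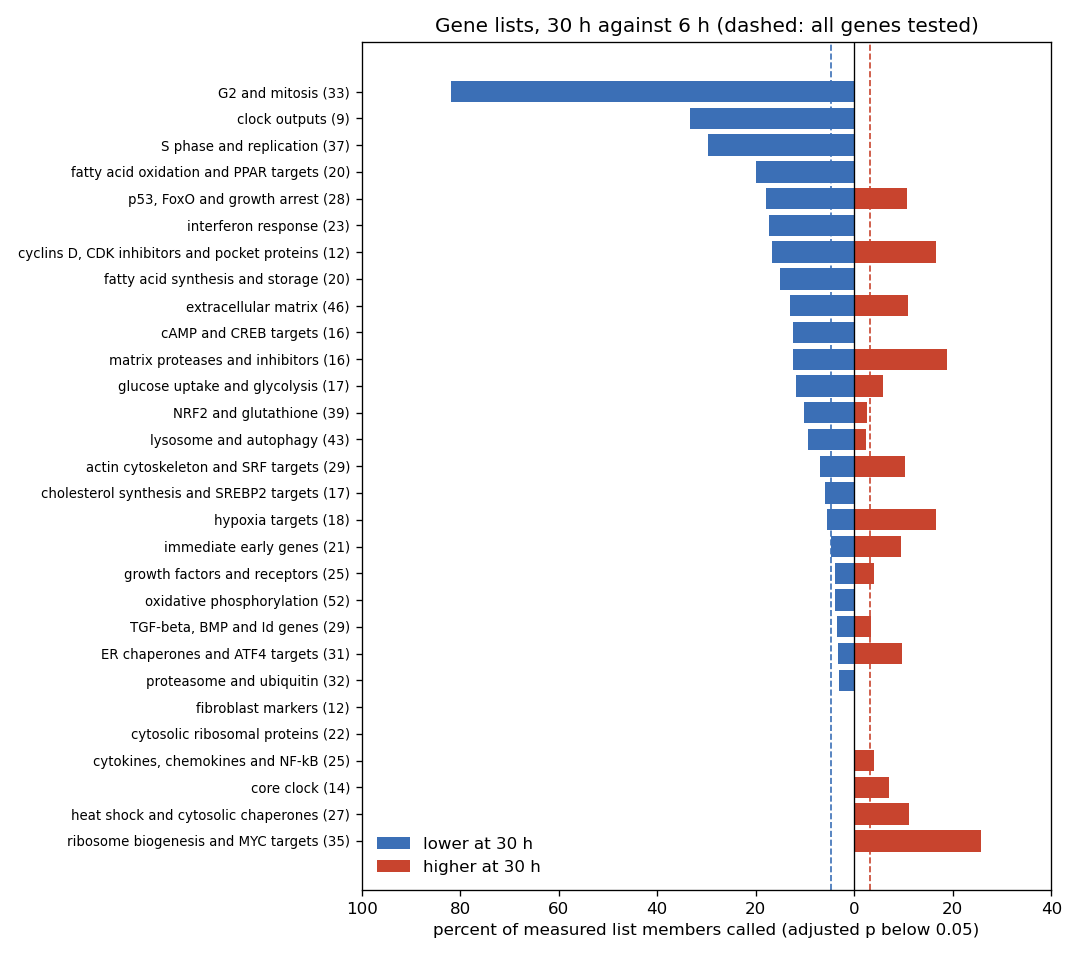
Percent of the measured members of each gene list that were called lower (blue, left) or higher (red, right) at 30 h than at 6 h, with the number measured in brackets. Dashed lines give the percent of all genes tested, 4.7 lower and 3.15 higher. G2 and mitosis, with 27 of 33 lower, has the longest bar, and ribosome biogenesis, with 9 of 35, has the longest bar on the higher side.

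Matrix and cytoskeleton genes moved both ways. Of 46 extracellular matrix genes 23.9% were called, against 7.85% of all genes, and 5 rose (background 3.15%) and 6 fell (background 4.7%). Tnc, tenascin C, a matrix protein of wounds, fell by 1.57 ± 0.20 (adjusted p = 6.16e-05), from 9.13, 9.23 and 9.36 to 7.51, 7.94 and 7.57. Tgfbi, a secreted matrix protein induced by TGF-beta, fell by 1.89 ± 0.30 (adjusted p = 0.000394), from 9.25, 9.44 and 9.59 to 7.95, 7.42 and 7.23. Fbln1, fibulin 1, rose by 0.98 ± 0.12 (adjusted p = 6.16e-05), from 9.09, 9.0 and 9.26 to 10.09, 9.64 and 10.54. Other Fbln1 probe sets above the filter stood at 1.42 (adjusted p = 0.0014) and 0.28 (adjusted p = 0.182), so the size differed between probe sets. None of Tnc, Tgfbi and Fbln1 overlapped between the times, and all kept their call without the block, with an adjusted p of 0.0059 for Tnc, 0.0083 for Tgfbi and 0.037 for Fbln1. In all, 19 of the 98 called genes named were also called without the block. A dim second probe set of Tgfbi stood at 0.12 ± 0.45. The abundant fibrillar collagens Col1a1 (-0.13), Col1a2 (-0.04) and Col3a1 (0.32) and fibronectin Fn1 (0.03) did not pass.

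Among 29 actin cytoskeleton genes and targets of the serum response factor 17.2% were called, and 2 fell (background 4.7%) and 3 rose (background 3.15%). Tagln, the actin-binding protein SM22 alpha, was at 10.53, 10.79 and 10.62 and then at 8.69, 9.37 and 9.28, a change of -1.53 ± 0.17 (adjusted p = 8.54e-06). Csrp2, a LIM protein of the actin cytoskeleton, fell by 1.29 ± 0.18 (adjusted p = 0.000147), from 12.99, 13.31 and 13.12 to 12.05, 11.96 and 11.54. In both genes every 30 h array was below every 6 h array. Tpm1, a tropomyosin, rose by 0.42 and Actn1, an actinin, by 0.32, and these calls were lost without 3 and 5 of the 6 arrays, with an adjusted p of up to 0.0669 (without experiment 2 at 30 h) and 0.195 (without experiment 2 at 6 h). Other Actn1 probe sets above the filter stood at -0.03 (adjusted p = 0.971) and 0.40 (adjusted p = 0.301) and did not pass. Of 16 matrix proteases and inhibitors 31.2% were called, against 7.85% of all genes. Mmp9, gelatinase B, fell by 1.51 ± 0.22 (adjusted p = 0.000246) and the lysosomal protease Ctsl by 0.81. Prss23, a serine protease, rose by 1.09 and Ctsd, cathepsin D, by 0.47, the latter not without experiment 2 at 6 h or experiment 3 at 30 h (adjusted p = 0.0662 and 0.0733).

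Gas2, a growth arrest protein bound to actin filaments, had the smallest p of the genes named, at -1.34 ± 0.13 (adjusted p = 1.58e-06), from 11.33, 11.81 and 11.61 to 10.32, 10.01 and 10.40. Ddit4, an inhibitor of the growth kinase mTORC1, fell by 0.89 ± 0.14 (adjusted p = 0.00037). Gadd45b, a stress sensor, fell by 0.97 and Tob1, an antiproliferative protein, by 0.57, and both missed the threshold without several single arrays, with an adjusted p of up to 0.174 (without experiment 3 at 6 h) and 0.077 (without experiment 3 at 30 h). A second Gadd45b probe set above the filter stood at -0.26 (adjusted p = 0.582). In all, 28.6% of the 28 genes of p53, FoxO and growth arrest were called, against 7.85% of all genes, and 3 rose (background 3.15%) and 5 fell (background 4.7%). Of 21 immediate early genes 14.3% were called, against 7.85% of all genes. Klf4 and Jun (0.83 ± 0.16, adjusted p = 0.0021) rose and Klf10 fell (-1.03 ± 0.20, adjusted p = 0.00293), while Fos stood at -0.20. Of 16 targets of cyclic AMP and CREB, the pathway that forskolin turns on, 0 rose and 2 (12.5%, background 4.7%) fell. Bdnf, a neurotrophin, fell by 1.32 ± 0.25 (adjusted p = 0.00187), from 8.77, 9.18 and 9.41 to 7.55, 7.96 and 7.88. Rgs2, an inhibitor of G protein signalling, fell by 1.11 ± 0.22 (adjusted p = 0.0029), from 9.50, 9.07 and 9.08 to 8.74, 7.74 and 7.84. Neither overlapped between the times. The list did not fall as a whole: 10 of the 16 changes were positive, with a median of 0.117.

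Of 27 heat shock and cytosolic chaperone genes 3 (11.1%) rose, against 3.15% of all genes, and 0 fell. Hspa4, a partner of HSP70, rose by 0.88 ± 0.16 (adjusted p = 0.00154), although 3 other probe sets of the gene above the filter stood at 0.35, 0.23 and -0.06 and did not pass. Dnaja1, an HSP40 cochaperone, rose by 0.88 ± 0.17 (adjusted p = 0.00231), from 10.54, 10.03 and 10.34 to 11.23, 11.07 and 11.25. Its relative Dnaja2 rose by 0.54, a call lost without 5 of the 6 arrays (adjusted p up to 0.148, without experiment 3 at 30 h). Among 31 ER chaperones and ATF4 targets 12.9% were called, against 7.85% of all genes. The amino acid transporter subunit Slc7a5 rose by 0.90 ± 0.12 (adjusted p = 0.000144) and Psat1, of serine synthesis, fell by 1.19 ± 0.21 (adjusted p = 0.00122). The ER chaperone Hspa5 (BiP) rose by 0.50 and Manf, a secreted ER protein, by 0.52, and these calls were lost without 2 and 4 of the arrays (adjusted p up to 0.0652, without experiment 2 at 6 h, and 0.243, without experiment 3 at 6 h).

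Among the 20 measured PPAR targets and fatty acid oxidation genes, 4 (20%) fell, against 4.7% of all genes, and 0 rose. Of the 20 changes 17 were negative, with a median of -0.30. Echs1, the enoyl-CoA hydratase of mitochondria, fell by 1.04 ± 0.23 (adjusted p = 0.00641), from 10.69, 10.01 and 10.55 to 9.72, 9.43 and 8.99, and missed the threshold without experiment 3 at 30 h (adjusted p = 0.0699). Hadh (-0.50) and Acaa2 (-0.40), the next enzymes of the cycle, lost their calls without 3 and 4 arrays, with an adjusted p of up to 0.197 and 0.193 (both without experiment 3 at 30 h). Etfdh, which passes the electrons on, changed by -1.55 in experiment 1 and -0.01 in experiment 2, and its change of -0.71 was -0.37 (adjusted p = 0.299) without the experiment 1 array at 30 h. Of 20 genes of fatty acid synthesis 3 (15%, background 4.7%) fell. These were Scd1, the stearoyl-CoA desaturase, by 0.81 ± 0.14 (adjusted p = 0.000995), the desaturase Fads1 by 0.54 and the acyl-CoA synthetase Acsl5 by 0.53. Acsl5 was not called without any 1 of the 6 arrays (adjusted p up to 0.185, without experiment 1 at 6 h). Of 17 glycolysis genes 17.6% were called, against 7.85% of all genes: Pfkm, a phosphofructokinase, fell by 0.67 ± 0.11 (adjusted p = 0.000619), while Ldha (0.51) rose and Pkm (-0.34) fell with calls that were lost without 4 and 6 of the arrays (adjusted p up to 0.258, without experiment 2 at 6 h, and 0.116, without experiment 3 at 30 h).

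Among 39 NRF2 and glutathione genes 12.8% were called, against 7.85% of all genes, and 4 fell (background 4.7%) and 1 rose (background 3.15%). Mgst2, a microsomal glutathione transferase, fell by 2.24 ± 0.35 (adjusted p = 0.000407), from 9.72, 9.77 and 10.11 to 7.71, 7.52 and 7.65, with no overlap. Its mean was 7.98 at 0 h, below the 9.87 of 6 h. A dim second probe set of Mgst2 stood at 0.61 ± 0.51. Nqo1, a quinone reductase, fell by 1.80 (adjusted p = 0.025), a call lost without 5 of the arrays (adjusted p up to 0.192, without experiment 2 at 30 h), while a second Nqo1 probe set fell by 1.38 (adjusted p = 0.00154). Aldh9a1, an aldehyde dehydrogenase, fell by 0.49 and Mt2, a metallothionein, rose by 0.51, and both were lost without several arrays (adjusted p up to 0.0987, without experiment 1 at 6 h, and 0.108, without experiment 2 at 30 h). Of 18 hypoxia targets 22.2% were called, against 7.85% of all genes, and 3 rose (background 3.15%) and 1 fell (background 4.7%). The list did not rise as a whole: 9 changes were positive and 9 negative, from -0.892 to 0.748, with a median of -0.0017. The rises were those of Egln1, an oxygen-sensing prolyl hydroxylase, by 0.75 ± 0.13 (adjusted p = 0.000969), Tfrc, the transferrin receptor, by 0.75 and Ndrg1 by 0.40. Tfrc was not called without experiment 2 at 6 h or at 30 h (adjusted p = 0.0844 and 0.0523), nor Ndrg1 without experiment 3 at 30 h (adjusted p = 0.0704).

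Among 25 growth factors and receptors 8% were called, close to the 7.85% of all genes. Igf2, insulin-like growth factor 2, rose by 0.69 ± 0.11 (adjusted p = 0.000594), from 14.28, 14.01 and 14.15 to 14.82, 14.70 and 15.00, with no overlap, and Fgfr2 fell by 0.67, which was lost without 4 arrays (adjusted p up to 0.0791, without experiment 2 at 30 h). Vcam1, an adhesion molecule, was the 1 call (4%, background 7.85%) among 25 cytokine and NF-kB genes. It rose by 0.68 ± 0.11 (adjusted p = 0.000446), with 2 other probe sets at 0.75 and 0.86. Of 23 interferon response genes 4 (17.4%) fell, against 4.7% of all genes, and 0 rose: Gbp2, a guanylate-binding protein, by 0.91 ± 0.16 (adjusted p = 0.000979), H2-K1 by 0.65, H2-D1 by 0.53 and the peptide transporter subunit Tap2 by 0.60. H2-D1 and Tap2 were each lost without 5 of the arrays (adjusted p up to 0.161, without experiment 3 at 30 h, and 0.119, without experiment 2 at 6 h). H2-K1 and H2-D1 are class I genes with close relatives, and another H2-K1 probe set stood at 1.03 (adjusted p = 0.0845). Of 29 genes of TGF-beta, BMP and Id 6.9% were called, close to the 7.85% of all genes. Ltbp3 rose by 0.57 and Tsc22d1 fell by 0.77, and both were lost without several arrays (adjusted p up to 0.142 and 0.119, both without experiment 3 at 30 h).

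Of 52 oxidative phosphorylation genes 2 (3.85%, background 4.7%) fell, Sdha (-0.62) and Atp5a1 (-0.29), of 32 proteasome genes 1 (3.12%), Psmb7 (-0.43), and of 17 cholesterol genes 1 (5.88%), Ebp (-0.59). Of 43 lysosome and autophagy genes 11.6% were called, against 7.85% of all genes: 4 fell, among them Ctsl, Gusb (-0.58) and Gabarapl1 (-0.51), and 1, Ctsd, rose. All of the genes named here except Ctsl missed the threshold without 1 or more single arrays, with the largest adjusted p, 0.253, for Sdha without experiment 3 at 30 h. Markers of other cell types were mostly dim. The brightest were Tubb3 at the 90.8th percentile of the mean level, Cd14 at the 81.5th, Lpl at the 72.7th and Cdh1 at the 71.4th. Above the filter were 3 of 6 macrophage, 4 of 7 muscle, 1 of 5 endothelial, 1 of 5 epithelial, 1 of 4 adipocyte and 3 of 6 neuron and glia markers, and 0 of these were called. Their members of smallest p were Cd68 (-0.27), Myog (1.08), Kdr (0.51), Cdh1 (0.12), Lpl (0.32) and Gfap (0.15). The summed intensity of the 7 muscle markers was 630.9 to 785.1 at 6 h and 799.7 to 1164 at 30 h. Myog, the muscle regulator myogenin, was at 7.54, 6.76 and 7.0 and then at 7.86, 8.42 and 8.25 (adjusted p = 0.0542, and 0.03 without experiment 1 at 30 h). The part of other cells in any result was not tested.

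**Figure D4:**
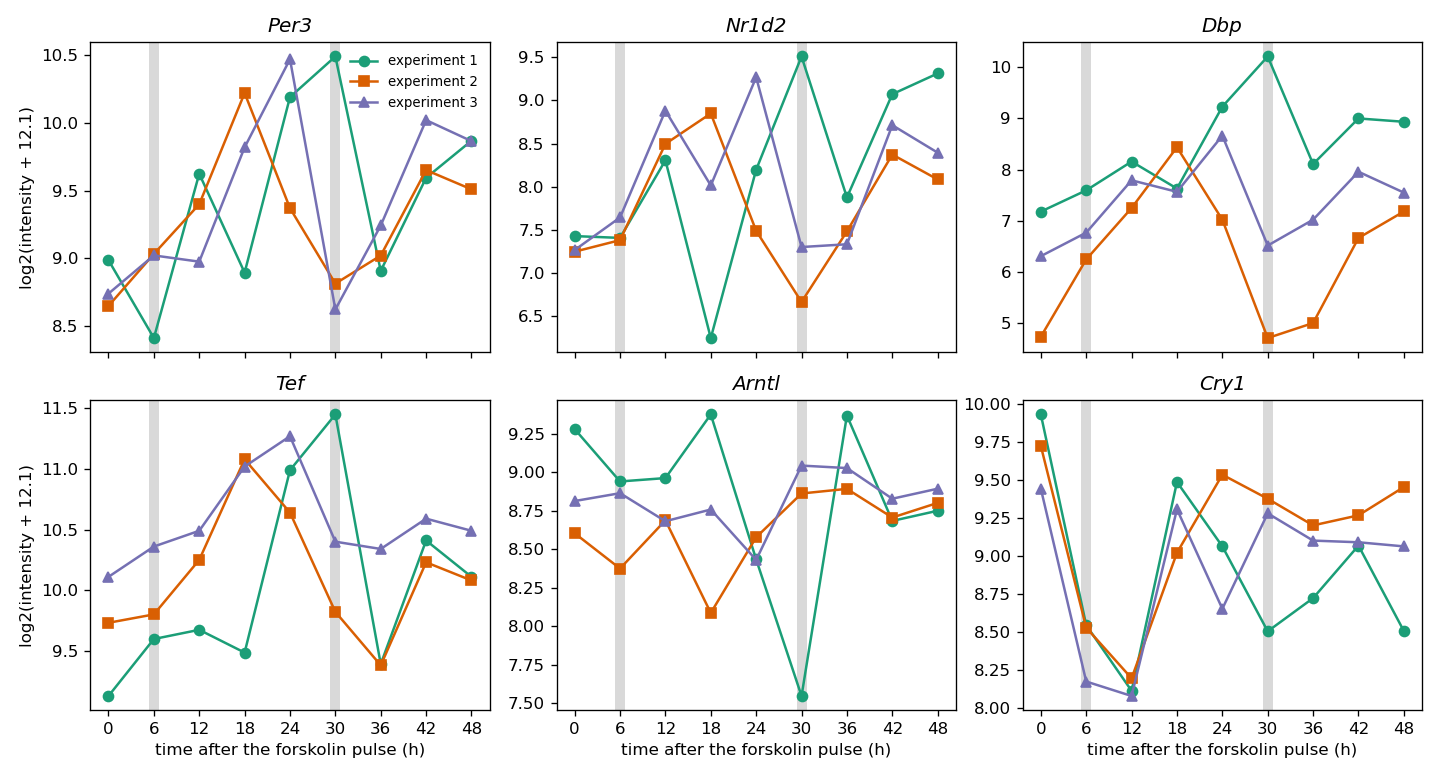
Levels of 6 clock and clock output genes against the time after the forskolin pulse (x axis, h) in log2(intensity + 12.1), 1 line per experiment; grey bars mark 6 h and 30 h. At 30 h experiment 1 lies above the others for Per3, Nr1d2, Dbp and Tef and below them for Arntl and Cry1.

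Of the 14 measured core clock genes, 1 (7.14%) was called between the same nominal phases a day apart, a share close to the 7.85% of all genes. Rora, a nuclear receptor that activates Arntl, was at 8.32, 7.93 and 7.85 at 6 h and at 9.01, 8.96 and 8.68 at 30 h, without overlap, and rose by 0.85 ± 0.13 (adjusted p = 0.000332). A dimmer Rora probe set below the filter stood at -0.09 ± 0.21. Cry1, a repressor of the loop, was at 8.55, 8.53 and 8.17 and then at 8.50, 9.38 and 9.28. Its change of 0.64 ± 0.22 did not pass (adjusted p = 0.0872), and without the experiment 1 array at 30 h it was 0.89 (adjusted p = 0.0189).

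The experiment 1 array at 30 h lay apart from the other two 30 h arrays in the genes of the loop. Per3, a period gene, was at 8.41, 9.03 and 9.02 at 6 h and at 10.49, 8.81 and 8.62 at 30 h, so that it changed by 2.08 in experiment 1 and by -0.22 and -0.40 in the others. Nr1d2 changed by 2.11, -0.72 and -0.34, and Nr1d1 by 1.10, -0.49 and -0.53. Arntl, the gene that both receptors repress, went the other way, by -1.39, 0.49 and 0.18. The clock output Dbp, a transcription factor, changed by 2.61, -1.53 and -0.25 and its relative Tef by 1.85, 0.02 and 0.04. None of these genes passed the test. Without that array the changes were -0.15 for Per3, -0.52 for Nr1d2, -0.48 for Nr1d1, 0.32 for Arntl, -0.85 for Dbp and 0.02 for Tef, with adjusted p from 0.27 (Nr1d1) to 0.98 (Tef).

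In experiment 1 the 18 h array also differed from the other two. Nr1d2 was at 6.24 there, against 8.85 and 8.01 in experiments 2 and 3, Tef at 9.49 against 11.08 and 11.02, and Arntl at 9.37 against 8.09 and 8.76. For Per3, Nr1d2, Tef and Arntl, but not for Dbp, the experiment 1 level at 18 h was nearer to the 30 h levels of the other experiments than to their 18 h levels, and the level at 30 h nearer to their 18 h levels. Whether these arrays were interchanged was not tested, the labels were kept, and the changes of experiment 1 from 6 h to 30 h rest on its 30 h array. In experiment 2, Per3, Nr1d2, Dbp and Tef were highest at 18 h and in experiment 3 at 24 h among the arrays from 0 h to 30 h, while in experiment 1 they were highest at 30 h. The remaining core clock genes were Clock (0.16), Per1 (0.39), Cry2 (0.48), Bhlhe40 (-0.01), Csnk1d (-0.09), Csnk1e (0.05), Timeless (-0.56) and Tipin (-0.22), and none passed. Of 9 measured clock outputs 0 rose and 3 (33.3%, background 4.7%) fell: Pnp, a purine phosphorylase, by 0.89, Tspo, a mitochondrial membrane protein, by 0.66 and Noct, nocturnin, by 0.45. The count was 2 without the experiment 1 array at 30 h, and 0 without experiment 2, without experiment 3 or without the block. The call of Pnp was lost without 4 of the arrays (adjusted p up to 0.0718, without experiment 3 at 6 h) and that of Noct without any 1 of the 6 (adjusted p up to 0.136, without experiment 3 at 6 h), and a second Noct probe set stood at 0.54 (adjusted p = 0.27). Usp2 (0.42), Nampt (-0.14), Nfil3 (-0.39) and Cirbp (0.03) did not pass.

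Other genes turned on the experiment 1 array at 30 h. Grb7, an adaptor protein, was at 7.68, 9.05 and 8.92 and then at 8.06, 7.28 and 7.06. Its change was -1.09 (adjusted p = 0.053) with that array and -1.60 (adjusted p = 0.00316) without it. Mxd3, a partner of MAX, moved from -0.97 (adjusted p = 0.254) to -1.65 (adjusted p = 0.0308), and Acyp2, an acylphosphatase, from -0.81 (adjusted p = 0.214) to -1.37 (adjusted p = 0.0202). Of the 443 genes called with the array, 92 were not called without it, and 81 were called only without it.

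The other pairs of time points 24 h apart, which share no array with these 6, gave fewer calls. Between 36 h and 12 h 193 genes (3.42%) were called, between 42 h and 18 h 2 (0.0354%) and between 48 h and 24 h 35 (0.62%). The median change of the G2 and mitosis genes was -0.924 for 36 h against 12 h, where 9 members fell (background 2.09%), 0.0935 for 42 h against 18 h and -0.0588 for 48 h against 24 h, where 0 were called.

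**Figure D5:**
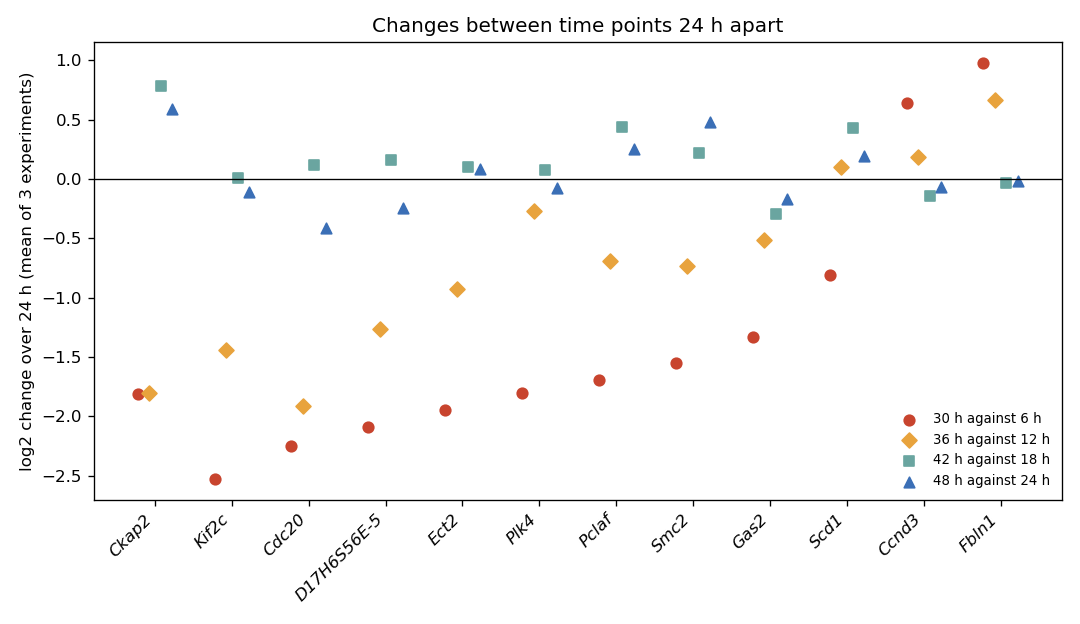
Log2 change over 24 h (y axis, mean of the 3 experiments) of 12 genes for the 4 pairs of time points, each pair with its own colour and mark. For the 10 genes on the left the change of 30 h against 6 h lies lowest, for Ckap2 next to that of 36 h against 12 h, and for Ccnd3 and Fbln1 it lies highest.

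The difference between the changes was tested in the same fit. The change of 30 h against 6 h differed from that of 42 h against 18 h in 54 genes (0.957%), 44 of them in the lower direction, and from that of 48 h against 24 h in 24 genes (0.425%), 18 of them lower. From that of 36 h against 12 h limma called 0 genes different, although 417 had an unadjusted p below 0.05. Plk4, the kinase that starts centriole duplication, changed by -1.80 from 6 h to 30 h and by 0.07 from 18 h to 42 h, a difference of -1.88 ± 0.29 (SE, adjusted p = 0.00246). Ckap2, a spindle protein, changed by -1.81 and 0.78 (difference -2.59 ± 0.51, adjusted p = 0.0123), and Pclaf, a partner of PCNA, by -1.70 and 0.44 (difference -2.14 ± 0.32, adjusted p = 0.00246). Fbln1 changed by 0.98 and -0.04 (difference 1.01 ± 0.18, adjusted p = 0.00678), and Ccnd3 by 0.64 and -0.15 (difference 0.79 ± 0.14, adjusted p = 0.00844). By contrast, Klf4 rose by 1.54 from 6 h to 30 h and by 1.14 from 12 h to 36 h (adjusted p = 0.00733), and its mean was 9.55 at 6 h, 11.09 at 30 h and 11.88 at 48 h. Tagln fell in 3 of the 4 pairs, by 1.53, 0.86 (36 h against 12 h) and 0.80 (48 h against 24 h), and stood at -0.59 in the fourth. Of the G2 and mitosis genes 7 differed from 42 h against 18 h and 2 from 48 h against 24 h. Without the block 0 genes differed in either, with 306 and 272 at an unadjusted p below 0.05, and without the experiment 1 array at 30 h 58 and 41 did. The change of 42 h against 18 h also rests on the experiment 1 array at 18 h, which stood apart in clock genes. That array was not left out on its own.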

How the data were processed

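Total RNA of each culture had been the starting material for 1 Affymetrix mouse U74v2 array. The authors deposited intensities on a linear scale, 12488 probe sets per array with 66 controls and 1 empty control cell. Which algorithm summarised the probes is not stated in these sources. The mean of each array lay near 500.3 after leaving out both ends, so the deposited intensities had been scaled to a common target.

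Values were taken as log2(intensity + 12.1), the 10th percentile of all values, and quantile normalized over 27 arrays, because array medians differed by up to 0.25 (log2). Controls and probe sets below the 40th percentile of the mean level were left out, which kept 7453. The platform annotation gave 1 symbol to 10855 probe sets and several to 396; 10839 matched RefSeq (GRCm38.p6). The brightest probe set represented a gene, for 5643 genes in all.

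The model was fitted in R 4.3.3 with limma 3.58.1, with time and experiment as factors over all 27 arrays (16 residual degrees of freedom), an intensity trend and Benjamini-Hochberg adjustment over all probe sets kept. A change is the mean of 30 h minus that of 6 h. Its standard error comes from the spread estimated over all 27 arrays, not from the spread of the paired changes of that gene. The rule of the comparison pairs the arrays by experiment number. Deviations from the time means correlated between the 6 h and 30 h arrays at 0.584, 0.406 and 0.349 in experiments 1 to 3, and in every pair of arrays of an experiment at 0.135 or more, so the numbers pair the samples.

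Named were the 12 largest rises and falls with 1 sign in all experiments, up to 4 called members per list (else the one of smallest p), every core clock gene, the 5 largest differences from another one-day pair, and up to 4 genes whose call turned on the experiment 1 array at 30 h. The clock outputs, and other list members given with values, were named after their values were seen. The comparison, the lists and the rule were chosen with earlier results of these data known. Lists are described by counts and medians, with no test of the list. On simulated data for 30 h against 6 h, with 7453 probe sets, the fit recovered 34.3% of changes of 0.5, 79.1% of changes of 1 and 97% of changes of 2, against 4.48%, 58.2% and 90.9% without the block. Alternatives changed the block, scaling, pseudocount, filter, variance model, array weights and arrays.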

Additional observations from a re-analysis of the deposited data

Results flagged for a closer look

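The change from 6 h to 30 h differed from that of another pair of time points 24 h apart, by a test of the difference itself in the paired limma fit, for the following named genes. Each value is the change of 30 h against 6 h minus the change of the other pair, in log2 units with its standard error and adjusted p.

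Many of the named genes were chosen by their change from 6 h to 30 h or by these same differences. Counts among them are therefore in part set by the choice. Among all 5643 genes, 54 (0.957%) differed from 42 h minus 18 h, 44 of them downward and 10 upward, and 24 (0.425%) from 48 h minus 24 h. Against 42 h minus 18 h, 16 of the named genes differed downward and 3 upward. The differences were -2.543 for Kif2c (SE 0.593, adjusted p = 0.042), -2.369 for Cdc20 (SE 0.447, adjusted p = 0.0104), -2.251 for D17H6S56E-5 (SE 0.465, adjusted p = 0.0228) and -2.044 for Ect2 (SE 0.431, adjusted p = 0.0255). They were -2.594 for Ckap2 (adjusted p = 0.0123), -2.135 for Pclaf (adjusted p = 0.00246), -1.774 for Smc2, a condensin subunit (adjusted p = 0.0255), -1.875 for Plk4 (adjusted p = 0.00246) and -1.697 for Mcm5 (adjusted p = 0.0462). The difference was -1.438 for Rgs2 (adjusted p = 0.0262), -1.037 for Gas2 (adjusted p = 0.00773), -1.158 for Ddit4 (adjusted p = 0.00465), -1.382 for Psat1 (adjusted p = 0.0262), -1.354 for Mmp9 (adjusted p = 0.042), -1.236 for Scd1 (adjusted p = 0.00331) and -0.7389 for Pfkm (adjusted p = 0.0256). It was upward for Ccnd3 (0.7889, adjusted p = 0.00844), Fbln1 (1.012, adjusted p = 0.00678) and Tpm1 (0.6558, adjusted p = 0.0262).

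Against 48 h minus 24 h, the differences were -2.03 for Ect2 (adjusted p = 0.0392), -2.403 for Ckap2 (adjusted p = 0.0364), -1.95 for Pclaf (adjusted p = 0.00587), -2.028 for Smc2 (adjusted p = 0.0124), -1.727 for Plk4 (adjusted p = 0.00587), -1.167 for Gas2 (adjusted p = 0.00587) and -1.004 for Scd1 (adjusted p = 0.0253). They were 0.7081 for Ccnd3 (adjusted p = 0.03) and 0.9895 for Fbln1 (adjusted p = 0.0104). All 9 genes also differed from 42 h minus 18 h. Without the experiment as a block 0 genes differed from either pair. The experiment 1 array at 18 h, which stood apart in clock genes, is part of the 42 h minus 18 h change and was not left out on its own.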

How the results depend on the processing

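The count of 532 probe sets between 30 h and 6 h was 55 with no replicate block, 54 with no replicate block and without the experiment 1 array at 30 h (an alternative chosen after seeing the data), 992 with array weights and 58 to 517 with an array or an experiment left out. Other settings gave 416 (the 6 arrays only) to 538. The 27 G2 and mitosis members called became 2 with no replicate block, 1 without that array too, 13 with a filter at the 60th percentile, which tests fewer genes, and 8 to 21 with an array or experiment left out. The 62 probe sets that differed from 42 h against 18 h and the 30 that differed from 48 h against 24 h both became 0 with no replicate block, and the 30 became 50 without the experiment 1 array at 30 h.

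Of 98 named genes called, all kept their direction in every alternative run, 49 kept the call without each single array, 24 without each experiment and 19 without the block. Sign changes were confined to named genes that were not called. Nr1d1 (0.03) was at -0.0038 with the deposited scaling, -0.039 with median centring and -0.14 with array weights, Bhlhe40 (-0.01) at 0.0028 with the deposited scaling, and Cirbp (0.03) at -0.024 with median centring and -0.0013 with array weights. With an array or experiment left out, the change ran from -0.080 to 0.37 for Gfap, -0.61 to 0.33 for Arntl, -0.31 to 0.93 for Per3, -0.51 to 0.30 for Nr1d1, -0.53 to 0.88 for Nr1d2, -0.51 to 0.36 for Bhlhe40, -0.10 to 0.20 for Csnk1e, -0.89 to 1.18 for Dbp and -0.11 to 0.13 for Cirbp. The cause of these shifts was not tested. With 3 arrays a time, changes of 0.5 were mostly missed on simulated data, and dim signals limit the largest falls.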
